A study of Microcebus murinus with 8 samples.

Results

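The miR-29 family consists of miR-29a, miR-29b and miR-29c, microRNAs that share one seed, the stretch near the 5′ end that pairs with target messenger RNAs. The 3 members were the rows so named among the 108 microRNAs listed in each plasma sample of Microcebus murinus, the grey mouse lemur, a small nocturnal primate, and all 3 passed the filter on low values. With the species prefix of the tables they are mmr-miR-29a, which averaged 7079 ± 1051 RPM (SD, n = 8), mmr-miR-29b with 462 ± 108 RPM and mmr-miR-29c with 1572 ± 247 RPM, where RPM are reads per 1000000 among the listed microRNAs alone. The samples came from wild-type animals fed a diet based on vegetable fat (4 samples, numbered 5 to 8) or on dairy fat (4 samples, numbered 1 to 4). The labels used here give no age, sex or length of feeding, and no animals on another diet were analysed here, so vegetable fat is set against dairy fat throughout. They also do not say that each sample came from a separate animal, so the p-values speak of the spread between samples, which may be technical.

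In human and mouse, the family is transcribed from a pair of clusters, one holding miR-29a with a copy of miR-29b and the other holding miR-29c with a second copy of miR-29b, and both copies give the same mature miR-29b. Its known targets include messenger RNAs for collagens, elastin and other matrix proteins, for the de novo DNA methyltransferases and for components of insulin signalling, and in rodents a raised miR-29 level blunts insulin-stimulated glucose uptake. In human cells, miR-29b carries an end motif that directs it to the nucleus, and miR-29a and miR-29c differ from each other by a single base. In plasma, release by any tissue or blood cell adds to the level, so more release and more releasing cells cannot be told apart here.

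The 3 members stood in the same order in all 8 samples, with miR-29a highest, miR-29c next and miR-29b lowest. MiR-29a had 6675, 6031, 6953 and 7908 RPM in vegetable samples 5 to 8, against 8367, 5387, 8194 and 7117 RPM in dairy samples 1 to 4. The vegetable fat samples lay inside the range of the dairy fat samples, where sample 2 was the lowest and sample 1 the highest of all 8. MiR-29c had 1488, 1339, 1915 and 1855 RPM in vegetable samples 5 to 8, against 1580, 1178, 1674 and 1547 RPM in dairy samples 1 to 4. Vegetable samples 7 and 8 lay above every dairy fat sample, and dairy sample 2 was again the lowest. MiR-29b had 387, 315.2, 673 and 428 RPM in vegetable samples 5 to 8, against 403, 471, 488 and 534 RPM in dairy samples 1 to 4. Vegetable sample 7 was the highest of all 8 and vegetable samples 5 and 6 were the lowest, so the vegetable fat samples stood on both sides of the dairy fat range.

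**Figure D1:**
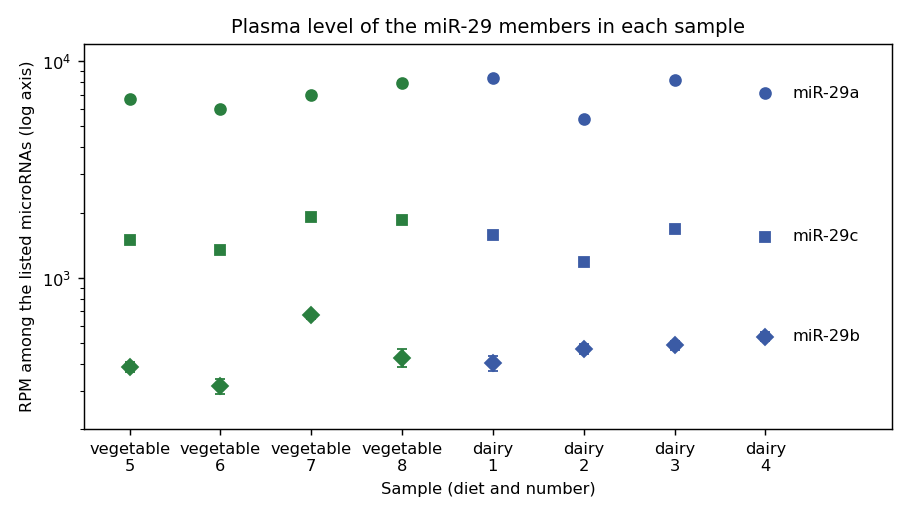
RPM of each miR-29 member (vertical log axis; circles, squares and diamonds for miR-29a, miR-29c and miR-29b) in each sample, vegetable fat in green and dairy fat in blue, with 95% Poisson intervals of the implied reads, most of which are smaller than the symbols. The order miR-29a, miR-29c, miR-29b holds in all 8 samples, and the widest spread is that of miR-29b, between 315.2 and 673 RPM.

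The steps between the members were larger than their spread over samples. MicroRNAs are of nearly equal length, so their levels can be set side by side, but how well adapters join to each sequence and how often each molecule was copied are not known here and can shift such ratios. MiR-29a was 4.51-fold above miR-29c as a geometric mean, and between 3.63-fold and 5.29-fold in single samples. MiR-29c was 3.44-fold above miR-29b, and between 2.50-fold and 4.34-fold in single samples. MiR-29a was 15.5-fold above miR-29b, and between 10.3-fold and 20.8-fold in single samples. Each of these 3 differences had the same direction in 8 of 8 samples, with p = 0.00781 by a two-sided exact sign-flip permutation test and an adjusted p of 0.00781 over the 3 pairs, the smallest p that 8 samples can give. Any pair of microRNAs that keeps one order in all 8 samples gives this p, so it adds nothing to the order itself. The share of all pairs of microRNAs that do so was not counted. That miR-29a exceeded miR-29b also follows from the other differences. MiR-29a took 76.8% ± 2.61 of the family's reads on vegetable fat and 78.5% ± 1.91 on dairy fat (SD, n = 4 each). MiR-29c took 18.3% ± 1.26 on vegetable fat and 16.3% ± 0.717 on dairy fat. MiR-29b took 4.97% ± 1.40 on vegetable fat and 5.28% ± 1.23 on dairy fat.

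Among the 108 microRNAs, miR-29a ranked 16 or 17 in each sample, miR-29c between 30 and 34, and miR-29b between 44 and 58. The family summed to 8549, 7685, 9541 and 10191 RPM in vegetable samples 5 to 8, against 10350, 7036, 10356 and 9198 RPM in dairy samples 1 to 4, or 0.899% ± 0.110 and 0.923% ± 0.156 of the reads (SD, n = 4 each). The implied read totals, read from the step between values, were 3286351, 1855670, 4004131 and 1061434 in vegetable samples 5 to 8 and 1408536, 3103305, 3437717 and 3210200 in dairy samples 1 to 4. They count the reads of the 108 listed microRNAs only, and the read numbers of the whole libraries are not known here. MiR-29b therefore rested on 454 to 2694 implied reads per sample, miR-29c on 1969 to 7669 and miR-29a on 8394 to 28167. In the sample with the fewest implied reads, vegetable sample 8, the 428 RPM of miR-29b had a 95% Poisson interval of 389 to 469 RPM. Such intervals cover counting error only, since it is not known whether reads or unique molecules were counted.

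The family varied little from sample to sample compared with the other microRNAs. The SD of log2(RPM + 1) over the 8 samples was 0.22 for miR-29a, 0.23 for miR-29c and 0.33 for miR-29b, beside a median of 0.48 over the 104 microRNAs tested. A smaller SD was found for 4 of the 104 in the case of miR-29a, for 6 in the case of miR-29c and for 21 in the case of miR-29b. More abundant microRNAs have less counting error, which is part of any such ranking.

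The ratio of miR-29c to miR-29a varied least of the 3 ratios within the family and was the one in which the diets did not overlap. It was 0.223, 0.222, 0.275 and 0.235 in vegetable samples 5 to 8, against 0.189, 0.219, 0.204 and 0.217 in dairy samples 1 to 4. All 4 vegetable fat samples lay above all 4 dairy fat samples, but the nearest pair, vegetable sample 6 and dairy sample 2, differed by less than counting error, with exact Clopper-Pearson 95% intervals of 0.212 to 0.232 and 0.211 to 0.227. The mean was 0.239 ± 0.0252 on vegetable fat and 0.207 ± 0.0139 on dairy fat (SD, n = 4 each). The difference of the mean log2 ratios was 0.20, a fold of 1.15, with a 95% interval of 0.025 to 0.54 from inverting the permutation test. The two-sided exact permutation p was 0.0286, the smallest that 4 against 4 samples can give. The adjusted p over the 3 ratios and the family sum was 0.114, so the difference did not pass the threshold of 0.05. A ratio that alone reaches the smallest p cannot pass after adjustment over 4 tests, so the adjusted p cannot decide whether the ratio differs. Without vegetable sample 7 the difference was 0.13 on the log2 scale. That the other 3 vegetable fat samples lay above all 4 dairy fat samples had to follow, since all 4 did.

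The background for that separation was taken from all microRNAs with distinct values. The ratio to miR-29a did not overlap between the diets for 2 of 100 other microRNAs, or 2%, and these were miR-29c and miR-3959, whose ratio was lower on vegetable fat. Over all 5050 pairs of microRNAs, the ratio did not overlap for 40, or 0.792%. No single microRNA of the 108 had RPM values that did not overlap, a share of 0%. By limma on the ratios of 103 microRNAs to miR-29a, the difference for miR-29c was 0.20 ± 0.19 SE on the log2 scale (95% interval from −0.22 to 0.62, unadjusted p = 0.307, adjusted p = 0.998), with an error drawn partly from the other ratios, most of which vary more. In that test 21 ratios had a smaller p than that of miR-29c to miR-29a, and none had an unadjusted p under 0.05.

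**Figure D2:**
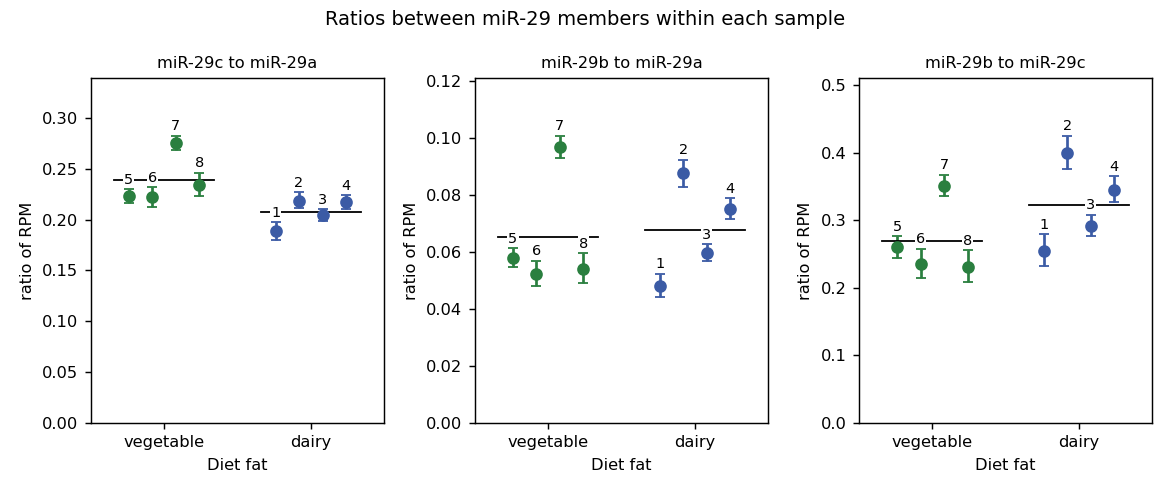
Ratios of RPM between miR-29 members (vertical axes, from 0) in each sample, with the sample number above each point, exact 95% intervals from the implied reads and a black line at the mean of each diet (vegetable fat in green, dairy fat in blue). For miR-29c to miR-29a all 4 vegetable fat samples, 0.222 to 0.275, lie above the 4 dairy fat samples, 0.189 to 0.219, and the other ratios overlap.

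The ratio of miR-29b to miR-29a overlapped between the diets and was less steady. It was 0.0579, 0.0523, 0.0968 and 0.0541 in vegetable samples 5 to 8, against 0.0481, 0.0875, 0.0596 and 0.0750 in dairy samples 1 to 4. Vegetable sample 7 was the highest of all 8, the other vegetable fat samples lay inside the dairy fat range, and the 95% interval of sample 7, 0.0930 to 0.101, lay above the interval of every other sample. The mean was 0.0653 ± 0.0211 on vegetable fat and 0.0675 ± 0.0173 on dairy fat (SD, n = 4 each), and the mean log2 ratios differed by −0.06 (95% interval from −0.74 to 1.0, two-sided exact permutation p = 0.857, adjusted p = 0.857). The ratio of miR-29b to miR-29c was 0.260, 0.236, 0.351 and 0.231 in vegetable samples 5 to 8, against 0.255, 0.400, 0.292 and 0.345 in dairy samples 1 to 4. Vegetable samples 6 and 8 lay below every dairy fat sample, while sample 7 exceeded all of the dairy fat samples but sample 2. The mean log2 ratios differed by −0.26 (95% interval from −0.79 to 0.46, two-sided exact permutation p = 0.257, adjusted p = 0.514).

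The SD of the log2 ratio over the 8 samples was 0.16 for miR-29c to miR-29a, 0.30 for miR-29b to miR-29c and 0.37 for miR-29b to miR-29a. Among the 5050 pairs of microRNAs, 12, or 0.238%, had a smaller SD than miR-29c to miR-29a, where the median pair had 0.79. Pairs with fewer reads carry more counting error, which is part of this ranking too. The aligner and counter are not named, so it is not known how well reads of miR-29a and miR-29c, so alike in sequence, were told apart. For miR-29b to miR-29a 504 pairs, or 9.98%, had a smaller SD. In the miR-30 family, another group with a shared seed, the SD was 0.33 for miR-30c to miR-30e, 0.46 for miR-30a to miR-30c and 0.50 for miR-30a to miR-30e, and the difference between the families was not tested.

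The levels of the members were also compared with one another over the 8 samples. Pearson's r of the log2 levels was 0.76 for miR-29a and miR-29c (exact permutation p = 0.0278, adjusted p over the 3 pairs = 0.0834; Spearman's rho = 0.67, exact permutation p = 0.0831, adjusted p = 0.249). Without dairy samples 1 and 2, the samples farthest from the median of miR-29a, r was 0.68 (exact permutation p = 0.133). For miR-29b and miR-29c r was 0.49 (exact permutation p = 0.216, adjusted p = 0.324; rho = 0.52, exact permutation p = 0.197, adjusted p = 0.295), and −0.13 without vegetable samples 6 and 7 (exact permutation p = 0.835). Those samples are the farthest from the median of miR-29b, and leaving them out narrows its range. For miR-29a and miR-29b r was 0.14 (exact permutation p = 0.741, adjusted p = 0.741; rho = 0.19, exact permutation p = 0.665, adjusted p = 0.665), and 0.44 without dairy samples 1 and 2 (exact permutation p = 0.393). None of the 3 pairs passed after adjustment. RPM are shares of a fixed total, which alone ties the members' levels to each other.

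As a description of likeness by Pearson's r over the 8 samples, with 103 other microRNAs compared for each member, the profile of miR-29a was most like those of miR-361 (0.83), miR-660 (0.77) and miR-29c (0.76), and miR-29b came in place 57. The profile of miR-29c was most like those of miR-30c (0.90), miR-17 (0.85) and miR-6313 (0.83), with miR-29a in place 5 and miR-29b in place 19. The profile of miR-29b was most like those of miR-590 (0.88), miR-6313 (0.79) and let-7f (0.73), with miR-29c in place 19 and miR-29a in place 30.

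Samples with more implied reads tended to hold a higher share of miR-29b, though no relation passed after adjustment. The slope of the log2 ratio of miR-29b to miR-29a was 0.38 for each doubling of implied reads. It was 0.34 within vegetable fat and 0.46 within dairy fat, but each of these slopes leaned on 1 sample. On dairy fat, sample 1 had the fewest reads and the lowest ratio, 0.0481. In dairy samples 2, 4 and 3, in order of rising reads, the ratio fell, at 0.0875, 0.0750 and 0.0596. On vegetable fat, samples 8, 6 and 5, in the same order, had 0.0541, 0.0523 and 0.0579. Sample 7, with the most reads, had 0.0968. Over all 8 samples Pearson's r for this ratio was 0.71 (exact permutation p = 0.0429, adjusted p over 6 relations = 0.129). Spearman's rho was 0.71 (exact permutation p = 0.0576, adjusted p = 0.249). Without vegetable sample 8 and dairy sample 1, the samples farthest from the median read total, r was 0.64 over 6 samples (exact permutation p = 0.136). For miR-29b to miR-29c r was 0.73 (exact permutation p = 0.0421, adjusted p = 0.129; rho = 0.67, exact permutation p = 0.0831, adjusted p = 0.249) and 0.61 without the same samples (exact permutation p = 0.179). The ratio of miR-29c to miR-29a had r = 0.31 (exact permutation p = 0.466, adjusted p = 0.559; rho = 0.17, exact permutation p = 0.703, adjusted p = 0.752), and 0.35 without the same samples (exact permutation p = 0.401).

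For the levels themselves, r with the read total was 0.57 for miR-29b (exact permutation p = 0.152, adjusted p = 0.304; rho = 0.57, exact permutation p = 0.151, adjusted p = 0.302), and 0.85 without the same samples (exact permutation p = 0.0319, adjusted p = 0.192). For miR-29a r was −0.35 (exact permutation p = 0.401, adjusted p = 0.559; rho = −0.14, exact permutation p = 0.752, adjusted p = 0.752) and turned to 0.45 without them (exact permutation p = 0.382). For miR-29c r was −0.12 (exact permutation p = 0.773, adjusted p = 0.773; rho = 0.21, exact permutation p = 0.619, adjusted p = 0.752) and turned to 0.60 without them (exact permutation p = 0.218). Read totals overlapped between the diets, at 2.55 ± 1.34 M on vegetable fat and 2.79 ± 0.931 M on dairy fat (M, 1000000 reads; SD, n = 4 each). So did the log2 ratio of miR-486, abundant in red blood cells, to miR-23b, at 4.07 to 5.23 on vegetable fat and 3.72 to 5.62 on dairy fat. The part of the implied read total or of red cell RNA in the diet difference of miR-29c to miR-29a was not tested.

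**Figure D3:**
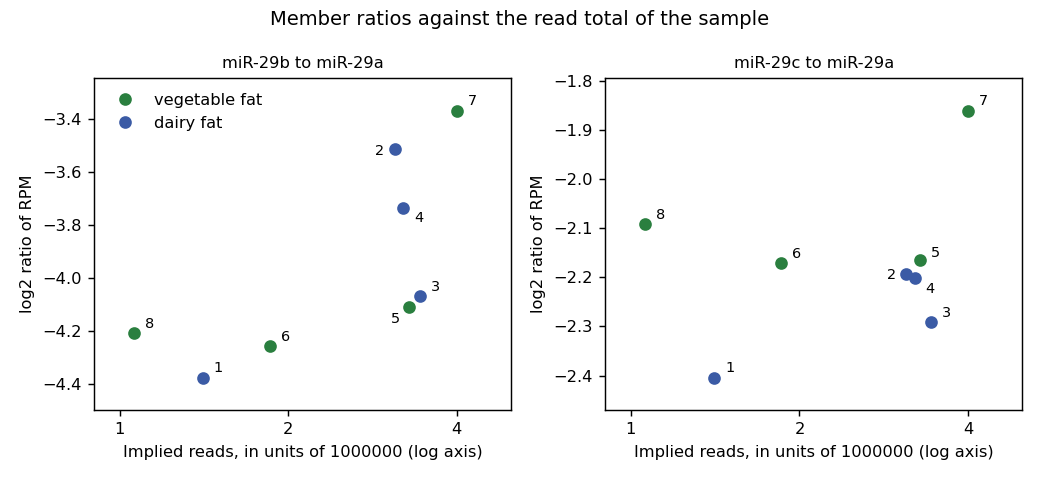
Log2 ratios of miR-29b to miR-29a (left) and miR-29c to miR-29a (right) against the implied reads of the sample in units of 1000000 (log axis), 1 numbered point per sample, vegetable fat in green and dairy fat in blue. On the left the 3 samples with the fewest implied reads (1, 6 and 8) lie low and the sample with the most (7) is the highest, with r = 0.71. On the right r is 0.31, and sample 7 is again the highest.

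No member passed the test of a difference in level between the diets. By limma with Benjamini-Hochberg adjustment, 0 of 104 microRNAs passed an adjusted p of 0.05, or 0%, and 0 had an unadjusted p under 0.05, again 0%. MiR-29a averaged 6892 ± 780 RPM on vegetable fat and 7266 ± 1370 RPM on dairy fat (SD, n = 4 each), with a log2 fold change of −0.06 ± 0.21 SE on the log2(RPM + 1) scale (limma adjusted p = 0.999), which was −0.33 with upper quartile scaling. MiR-29b averaged 451 ± 155 RPM on vegetable fat and 474 ± 54.5 RPM on dairy fat, with a log2 fold change of −0.12 ± 0.30 SE (limma adjusted p = 0.999), which was −0.39 with that scaling. MiR-29c averaged 1649 ± 280 RPM on vegetable fat and 1495 ± 218 RPM on dairy fat, with a log2 fold change of 0.14 ± 0.25 SE (limma adjusted p = 0.999), which was −0.12 with that scaling.

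That scaling shifted all estimates down, with a median over all microRNAs of −0.19 in place of 0.07, and miR-29c lay above the median and miR-29a and miR-29b below it with either. The 95% intervals of the folds were 0.694 to 1.32 for miR-29a, 0.579 to 1.46 for miR-29b and 0.755 to 1.60 for miR-29c. The intervals leave room for changes of that size in either direction. The log2 family sum differed by −0.03 (95% interval from −0.43 to 0.53, two-sided exact permutation p = 0.857, adjusted p = 0.857), with 1 of the 4 vegetable fat samples above the dairy fat median. It differed by −0.29 with upper quartile scaling (exact permutation, adjusted p = 0.114) and by −0.12 without the 6 most abundant microRNAs (adjusted p = 0.343).

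**Figure D4:**
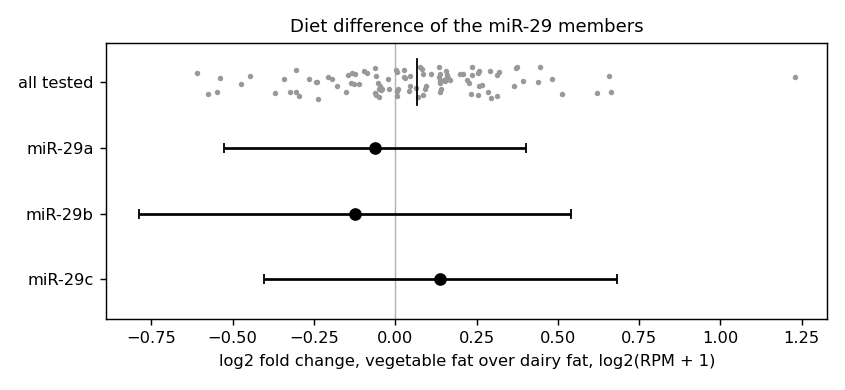
Log2 fold change, vegetable fat over dairy fat, from log2(RPM + 1) values (horizontal axis) for the 3 members with limma's 95% intervals, below the estimates of all 104 tested microRNAs (grey points, median 0.07 as a black line). The 3 intervals include 0, and the estimates of −0.06, −0.12 and 0.14 lie inside the cloud of the other microRNAs.

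The family was also set beside microRNAs that share its best known roles. Of 33 microRNAs on a list for glucose and insulin signalling, 17 were tested, the family included, and 0 rose and 0 fell by limma. MiR-103a and miR-103b on this list had identical values, so the same measurement was counted under both names. The median log2 estimate of the 17 was −0.04, beside 0.07 for all 104, with 7 estimates above 0 and 10 below (2 above and 15 below with upper quartile scaling). Over all 104 microRNAs 64 estimates were above 0 and 40 below (21 above and 83 below with upper quartile scaling), so the lists shifted with the rest. The smallest p on that list belonged to miR-107, which acts on insulin signalling (2580 ± 731 RPM on vegetable fat and 2204 ± 1350 RPM on dairy fat, log2 estimate 0.37), miR-26b (0.15), miR-27b, which represses the fat cell regulator PPAR-gamma (0.27), and miR-126, an endothelial microRNA (−0.34), all at a limma adjusted p of 0.999.

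Of 26 microRNAs on a list for collagen, fibrosis and DNA methylation, 13 were tested, the family included, and 0 rose and 0 fell by limma. Their median log2 estimate was 0.01, with 7 above 0 and 6 below (3 above and 10 below with upper quartile scaling). The smallest p belonged to miR-101, which represses the histone methyltransferase EZH2 (71.5 ± 12.6 RPM on vegetable fat and 46.9 ± 12.7 RPM on dairy fat, log2 estimate 0.62), miR-148b, a relative of the microRNAs that repress the maintenance DNA methyltransferase (0.48), miR-342 (−0.61) and miR-30c (0.29), all at a limma adjusted p of 0.999.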

How the data were processed

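The QIAseq miRNA kit turned plasma RNA, isolated by the miRNeasy Micro kit, into libraries, per the labels' protocols. Cutadapt 3.4 is named in the submitters' processing notes, while the aligner, counter, reference set, any use of molecular identifiers and the choice of microRNAs are not named there. The deposited values are RPM over the same 108 microRNAs, since each sample summed to 1000000. All 108 values of each sample were whole multiples of one step within 0.01, which gave the implied reads, but with few low values no count model was fitted to them. Names carry no hairpin arm. In the vegetable fat tables the header number differs from the title's (the diet does not), and titles were followed.

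Levels were tested with limma 3.58.1 (R 4.3.3, trended and robust variance) on log2(RPM + 1) for the 104 microRNAs that reached 1 RPM in 4 or more samples. Ratios within a sample, without pseudocount, do not depend on scaling and were compared over the 70 assignments of 8 samples, and correlations over all pairings, with scipy 1.17.1. Intervals of differences came from inverting that test in steps of 0.005. The limma step was tested on simulated data, with differences far larger than those of the members and a spread below the median seen here. That run does not show its power for differences as small as those of the members. Named are the members, the 3 microRNAs most like each, and the 4 of smallest p on each list. The members and lists were chosen with earlier results of these data known. Scaling, pseudocount, filter, variance model, read total and single samples were varied.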

Additional observations from a re-analysis of the deposited data

Results flagged for a closer look

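Within-diet values of the 3 members, their ratios, their sum and the read total made 16 groups, of which 2 had 1 sample far from the other 3, where chance flags about 1 in 20. In the vegetable fat group the ratio of miR-29b to miR-29a was 0.0968 in sample 7, against 0.0523 to 0.0579 in the other 3. In the dairy fat group sample 1 had 1.41 M implied reads (M, 1000000), against 3.10 to 3.44 M in the other 3.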

How the results depend on the processing

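Leaving out single samples in the relations to read total, and limma on ratios to miR-29a, were chosen after seeing the data. The number of microRNAs past the threshold was 0 in all 16 alternatives, with 0 to 4 at an unadjusted p under 0.05 (4 with read total as a covariate). Of 192 recomputed values 176 kept their direction and their side of the threshold, and the other 16 changed sign without a test passing, for causes not tested. Many could hardly change. With 1 sample left out, the exact permutation tests of diet difference cannot reach 0.05 for any ratio or for the family sum. A pseudocount of 1 RPM is also small beside the members' levels. MiR-29c turned to −0.12 with upper quartile scaling. With 1 sample left out, the diet difference on the log2 scale ran from −0.20 to 0.013 for miR-29a (0.013 without dairy sample 1, 0.0029 without dairy sample 3), from −0.33 to 0.029 for miR-29b (0.029 without vegetable sample 6) and from 0.028 to 0.23 for miR-29c. Upper quartile scaling gave −0.33 for miR-29a, −0.39 for miR-29b and −0.29 for the family sum, which was −0.12 without the 6 most abundant microRNAs. With 1 sample left out the family sum ran from −0.15 to 0.043 (0.031 without dairy samples 1 or 3, 0.043 without vegetable sample 6), and miR-29b to miR-29a from −0.27 to 0.075 (0.075 and 0.0010 without dairy samples 2 and 4, 0.029 and 0.012 without vegetable samples 6 and 8). For miR-29b to miR-29c it ran from −0.40 to −0.15 and for miR-29c to miR-29a from 0.13 to 0.23, with an adjusted exact permutation p of 0.229 in each fit of that ratio, where 7 samples cannot reach 0.05. The order of the levels kept an adjusted exact permutation p of 0.0156 with any 1 sample left out, which is fixed where every sample has the same order. Without the 2 samples farthest from the median read total, r with the read total was 0.45 for miR-29a and 0.60 for miR-29c. With 1 sample left out r ran from −0.44 to 0.28 for miR-29c (0.023 without dairy sample 2, 0.28 without vegetable sample 8), and for miR-29c to miR-29a from −0.046 (sample 7 of vegetable fat left out) to 0.63 (sample 8 left out). The planned edgeR and DESeq2 tests were not run, a choice made because the files give RPM with few low values. The Poisson and exact intervals do rest on the implied reads and assume that the step is 1 read. No paired analysis was possible, because no sample number occurs in both diets and the labels used here do not say which animal gave each sample. MiR-29b, on the fewest reads, is the member most limited by counting error.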
